A study of Homo sapiens with 12 samples.

Results

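MLXIP (also called MondoA), MLXIPL (also called ChREBP) and MLX encode a family of glucose-sensing transcription factors, and TXNIP, ARRDC4 and ARRDC3 encode alpha-arrestins, adaptor proteins that act on membrane cargo and nutrient uptake. These 6 genes were taken by name from the 2 deposited tables joined on gene identifier, which share 60558 genes, and all 6 passed the low-count filter in both experiments. The rule takes the genes by name and sets no threshold on a measured value, and the set was proposed with earlier results of these data known.

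In cells, MondoA and ChREBP pair with MLX, respond to glucose 6-phosphate and bind carbohydrate response elements, which are pairs of E-box-like half-sites in promoters. TXNIP and ARRDC4 are their best known targets, and TXNIP RNA is widely used as a readout of glucose sensing. TXNIP binds thioredoxin and, with ARRDC4, lowers glucose uptake through glucose transporters, whereas ARRDC3 is best known as an adaptor that leads cell surface proteins such as integrin beta 4 to degradation. PKM2 is a form of pyruvate kinase, the enzyme of the last step of glycolysis, and NONO is a nuclear RNA- and DNA-binding protein of paraspeckles.

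RNA was measured in MDA-MB-231 cells, an established human triple-negative breast cancer line, in 2 siRNA experiments that aimed to find genes controlled by NONO and PKM2. The NONO experiment held 3 NC (negative control) and 3 NONO_KD libraries, and the PKM2 experiment held its own 3 NC and 3 PKM2_KD libraries. The labels give NC cells as WT and the other groups as NONO knockdown or PKM2 knockdown, with no time, culture glucose or siRNA number. Because 1 cell line was used and nothing says that the libraries came from separate cultures, P values measure the spread between these libraries. RNA of whole cultures was read, so a change in every cell and a change in some of the cells cannot be told apart.

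Libraries held 19861762 to 28455268 estimated counts. NONO RNA fell 5.95-fold in NONO_KD libraries (adjusted P = 1.17e-10) and PKM RNA, counted over all forms of the gene, fell by 3.32 on the log2 scale in PKM2_KD libraries (adjusted P = 7.03e-12), and the targeted gene was lower in each knockdown library than in each NC library. VIM, CD44, AXL and CAV1, which mark mesenchymal breast cancer cells, averaged 109 to 4413 TPM, ESR1, PGR and CDH1 averaged at most 0.157 TPM, and ERBB2 averaged 14.3 to 30.8 TPM. The immune marker PTPRC averaged at most 0.0700 TPM, and the endothelial and fibroblast markers PECAM1 and COL1A1 averaged 0.293 to 1.86 and 2.44 to 8.75 TPM. The chi-square statistic per degree of freedom between replicates was 2.38 to 13.4, and NC library 1 of the NONO experiment and PKM2_KD library 3 lay farthest from their replicates.

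The promoter sequence of TXNIP is shown because it carries the response element that ties the factors to their target, and those of MLX and ARRDC4 are shown because each holds the full E-box CACGTG. The sequences are from RefSeq (GRCh38.p14) on the strand of the gene. Each starts 250 bases before the RefSeq start of transcription and stops before the first exon of either RefSeq or GENCODE. Capitals mark the half-sites in TXNIP, which read CACGNG and stand 5 bases apart, and CACGTG in the others.

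TXNIP, chr1:145996601-145996829, minus strand: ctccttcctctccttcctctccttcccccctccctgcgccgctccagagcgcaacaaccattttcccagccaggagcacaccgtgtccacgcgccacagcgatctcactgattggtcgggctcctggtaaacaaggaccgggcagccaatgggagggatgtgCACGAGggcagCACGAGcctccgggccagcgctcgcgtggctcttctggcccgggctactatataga
MLX, chr17:42566850-42567067, plus strand: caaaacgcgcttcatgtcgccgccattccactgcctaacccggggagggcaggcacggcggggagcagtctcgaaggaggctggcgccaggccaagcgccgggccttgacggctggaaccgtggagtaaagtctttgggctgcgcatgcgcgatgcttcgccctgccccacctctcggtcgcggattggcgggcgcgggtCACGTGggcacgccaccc
ARRDC4, chr15:97960453-97960697, plus strand: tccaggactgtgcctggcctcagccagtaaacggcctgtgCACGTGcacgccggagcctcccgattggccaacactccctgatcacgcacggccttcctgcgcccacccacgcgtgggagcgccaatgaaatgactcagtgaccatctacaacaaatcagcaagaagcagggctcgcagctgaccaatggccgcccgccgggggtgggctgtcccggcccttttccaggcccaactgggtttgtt

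The paired half-sites of TXNIP lay at -88 to -72 from the RefSeq start. Searched on both strands, this layout was found in 16 of 35116 promoter windows of 250 bases (0.0456%). CACGTG, which also fits CACGNG, was found in 6.34% of the windows and lay at -50 to -45 in MLX and at -210 to -205 in ARRDC4. The paired layout was not found in the windows of MLX and ARRDC4. Neither pattern was found in the windows of MLXIP, MLXIPL and ARRDC3 or in a further TXNIP window that begins inside the gene. Of the 16 genes with the paired layout, 13 were tested after PKM2 knockdown. Of these, 6 rose, against 33.6% of all genes tested, and 5 fell, against 34.7%. The median was 0.21 on the log2 scale, and TXNIP had the lowest value of the 13. After NONO knockdown 2 of the 13 rose, against 16.2% of all genes, and 2 fell, against 17.2%, with a median of 0.04. KCTD5 (-0.81), MTHFS (-0.66), MYL5 (-0.27), TIGD1 (-0.12) and GFPT1 (-0.12), named after their values were seen, were lower than TXNIP (-0.07). Of these, MYL5, TIGD1 and GFPT1 were not called.

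In GENCODE 29 (GRCh38), MLXIP lies at chr12:122078722-122147347 on the plus strand, MLXIPL at chr7:73593194-73624543 on the minus strand and MLX at chr17:42567068-42573239 on the plus strand. TXNIP lies at chr1:145992435-145996600 and ARRDC3 at chr5:91368724-91383359, both on the minus strand, and ARRDC4 at chr15:97960698-97973838 on the plus strand. MLX shares 770 exonic bases with PSMC3IP and ARRDC3 shares 145 with ARRDC3-AS1, each on the opposite strand. How the authors counted strand is not given in the sources used here, so reads of these stretches cannot be assigned to a strand.

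Per length, in TPM, TXNIP and MLX were the most abundant of the 6 RNAs in the NC libraries of both experiments. In the NC libraries of the NONO experiment, TXNIP averaged 102 ± 62.7 TPM (SD, n = 3) and MLX 87.0 ± 2.63 TPM, with overlapping libraries. MLXIP followed at 19.3 ± 0.783 TPM, ARRDC3 at 9.67 ± 2.89 TPM, ARRDC4 at 3.18 ± 0.637 TPM and MLXIPL at 2.27 ± 1.21 TPM. ARRDC4 and MLXIPL overlapped, and the other neighbours in this order did not.

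In the NC libraries of the PKM2 experiment, MLX averaged 81.4 ± 1.29 TPM (SD, n = 3) and TXNIP 57.2 ± 25.6 TPM, again with overlapping libraries. The other averages were 18.4 ± 1.07 TPM for MLXIP, 7.44 ± 0.956 for ARRDC3, 2.85 ± 0.372 for ARRDC4 and 1.88 ± 0.252 for MLXIPL, with no overlap between neighbours. In PKM2_KD libraries ARRDC3 averaged 16.4 ± 1.74 TPM and stood next to TXNIP at 13.2 ± 2.26 TPM, with overlapping libraries. MLXIP was then at 7.55 ± 1.77 TPM, and MLXIPL at 0.813 ± 0.380 TPM overlapped with ARRDC4 at 0.750 ± 0.0954 TPM.

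MLXIPL was the less abundant of the glucose sensors throughout, and MLXIP the main one by RNA. MLX, the shared partner, was more abundant than both together in every group. In NONO_KD libraries TXNIP averaged 93.7 ± 23.3 TPM and MLX 73.6 ± 2.60 TPM, followed by MLXIP at 23.1 ± 0.566, ARRDC3 at 11.8 ± 0.947, MLXIPL at 2.29 ± 1.04 and ARRDC4 at 1.94 ± 0.165 TPM. There TXNIP overlapped with MLX and MLXIPL with ARRDC4.

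**Figure D1:**
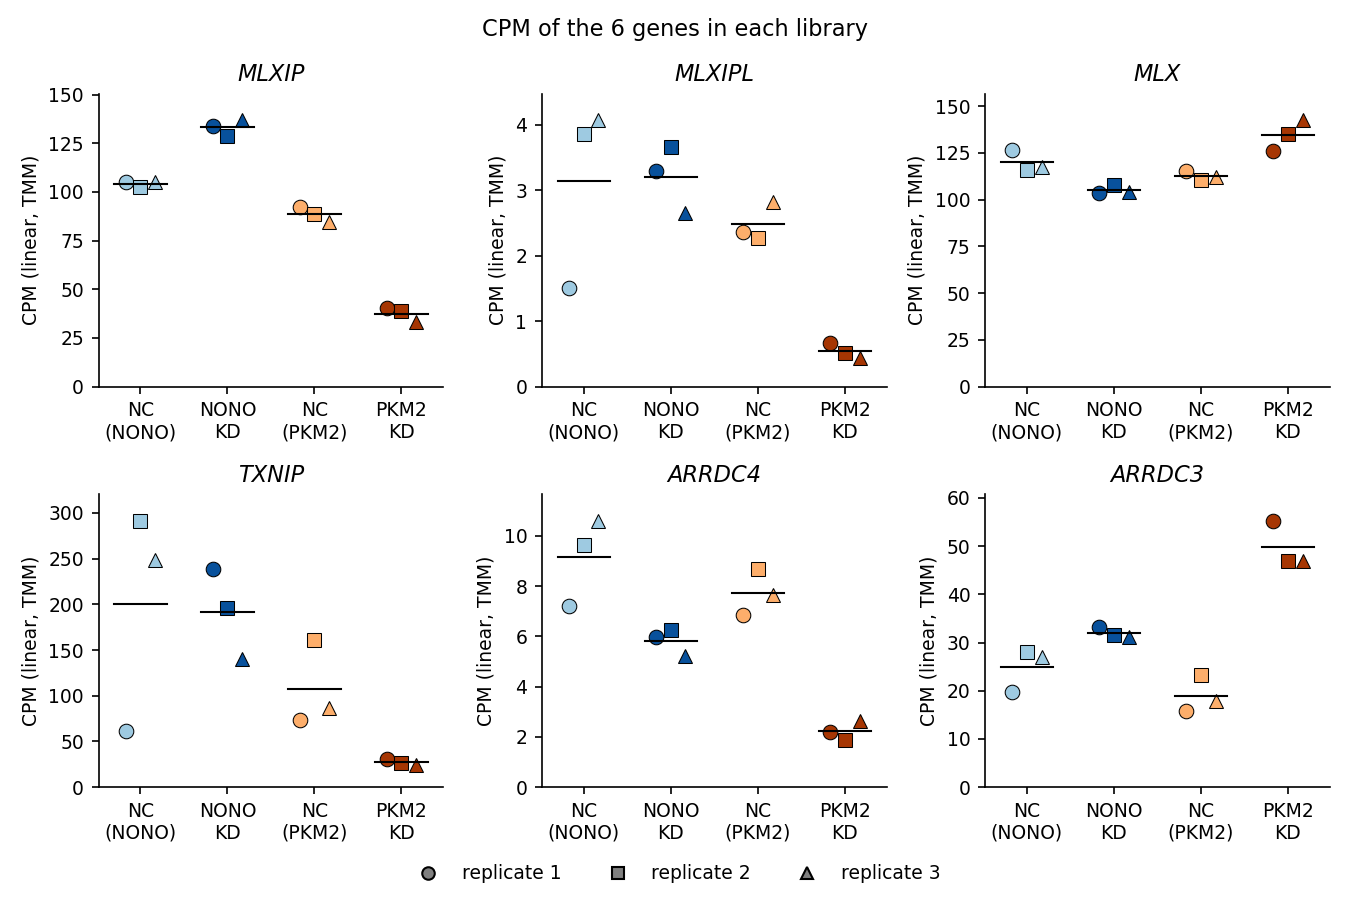
TMM-normalised CPM (linear axis from 0) of each gene in the 12 libraries by group, with marker shape for the replicate number and a black line for the group mean. MLXIP, MLXIPL, TXNIP and ARRDC4 were lower, and ARRDC3 and MLX higher, in all 3 PKM2_KD libraries than in all 3 of their NC libraries, and TXNIP in NC library 1 of the NONO experiment stood at 61.1 CPM against 249 and 292 in the others.

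After PKM2 knockdown all 6 genes changed. MLXIP, MLXIPL, TXNIP and ARRDC4 fell and MLX and ARRDC3 rose (adjusted P below 0.05, edgeR quasi-likelihood test, Benjamini-Hochberg over 15524 genes). Changes were frequent in this experiment: 34.7% of all genes tested were called lower and 33.6% higher. By the study's DEG cutoff, which asks for more than 2-fold and P below 0.05 before adjustment, 4 of the 6 fell, against 13.8% of all genes, and 1 rose, against 7.05%. In all 6 genes the CPM values of the groups did not overlap, and the share of all genes without overlap is not given.

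Values by library are given below as CPM, that is, TMM-normalised counts scaled to library size, which compares libraries for 1 gene and not genes with each other. MLXIP, the glucose sensor with the higher RNA level here, stood at 92.4, 88.6 and 84.7 CPM in the NC libraries and at 40.2, 39.1 and 33.0 CPM in the PKM2_KD libraries. All PKM2_KD libraries lay well below the lowest NC library. MLXIP fell 2.37-fold (log2 fold change -1.25, SE 0.07, adjusted P = 4.04e-08).

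MLXIPL, the sensor best known from liver and fat, stood at 2.35, 2.26 and 2.82 CPM in the NC libraries and at 0.663, 0.516 and 0.436 CPM in the PKM2_KD libraries. The groups were far apart, but the PKM2_KD values rest on at most 16.0 estimated counts per library. MLXIPL fell 4.59-fold (log2 fold change -2.20, SE 0.28, adjusted P = 2.06e-05), whereas its mean TPM was 2.31-fold lower, so the size of its fall depends on the unit.

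MLX, the dimer partner that both sensors need to bind DNA, stood at 115, 110.4 and 112 CPM in the NC libraries and at 126, 135 and 143 CPM in the PKM2_KD libraries. It was thus the family member that moved upwards, by little. MLX rose 1.20-fold (log2 fold change 0.26, SE 0.05, adjusted P = 0.00115). PSMC3IP, its neighbour on the opposite strand, rose in the same libraries with a log2 fold change of 0.72 (adjusted P = 2.66e-06), and its part in the MLX counts was not tested.

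TXNIP, the thioredoxin-binding arrestin and glucose response gene, stood at 73.7, 160.6 and 86.8 CPM in the NC libraries and at 31.1, 26.2 and 24.2 CPM in the PKM2_KD libraries. The second NC library was the highest, and all PKM2_KD libraries lay below the lowest NC library. TXNIP fell 3.93-fold (log2 fold change -1.98, SE 0.24, adjusted P = 1.67e-05). Without the second NC library the log2 fold change was -1.56 (adjusted P = 5.17e-07).

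ARRDC4, the arrestin most like TXNIP in its known control by glucose, stood at 6.86, 8.70 and 7.66 CPM in the NC libraries and at 2.20, 1.89 and 2.62 CPM in the PKM2_KD libraries. The groups were well apart, on 44.0 to 219 estimated counts. ARRDC4 fell 3.44-fold (log2 fold change -1.78, SE 0.17, adjusted P = 1.68e-06).

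ARRDC3, the arrestin known for integrin and receptor turnover, stood at 15.8, 23.2 and 17.8 CPM in the NC libraries and at 55.3, 47.0 and 46.9 CPM in the PKM2_KD libraries. It went the opposite way to the other arrestins in every PKM2_KD library. ARRDC3 rose 2.64-fold (log2 fold change 1.40, SE 0.12, adjusted P = 8.66e-07). The antisense gene ARRDC3-AS1 had a mean of 8.39 estimated counts in each of these groups and was too low to be tested.

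After NONO knockdown the changes were smaller and 4 of the 6 genes passed the test. MLXIP and ARRDC3 rose, against 16.2% of all genes called higher, and MLX and ARRDC4 fell, against 17.2% called lower (adjusted P below 0.05, same test over 14832 genes). By the DEG cutoff none of the 6 was called, against 0.789% of all genes higher and 2.16% lower, although 4 had an unadjusted P below 0.05 and DESeq2 also called 4 by adjusted P. In 4 of the 6 genes the CPM values of the groups did not overlap, and in 3 the TPM values did not. The share of all genes without overlap is not given.

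MLXIP stood at 105, 103 and 105 CPM in the NC libraries and at 134, 129 and 137 CPM in the NONO_KD libraries. The libraries of each group were close together. MLXIP rose 1.28-fold (log2 fold change 0.35, SE 0.04, adjusted P = 1.17e-04), the opposite direction to PKM2 knockdown.

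MLX stood at 127, 116 and 118 CPM in the NC libraries and at 104, 108 and 104 CPM in the NONO_KD libraries. MLX fell 1.14-fold (log2 fold change -0.19, SE 0.05, adjusted P = 0.0109), again opposite to PKM2 knockdown. PSMC3IP had a log2 fold change of 0.15 here (adjusted P = 0.140). Without the first or the third NONO_KD library the adjusted P of MLX was 0.0508 or 0.0518.

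MLXIPL stood at 1.51, 3.86 and 4.07 CPM in the NC libraries and at 3.29, 3.66 and 2.64 CPM in the NONO_KD libraries. The groups overlapped. The log2 fold change was 0.02 (95% interval -0.66 to 0.70, adjusted P = 0.972).

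TXNIP stood at 61.1, 292 and 249 CPM in the NC libraries and at 239, 196 and 141 CPM in the NONO_KD libraries. The first NC library was the lowest of the 6 and the other NC libraries were the highest. The log2 fold change was -0.07 (95% interval -0.94 to 0.81, adjusted P = 0.919).

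That first NC library decided the TXNIP result. Without it the log2 fold change of TXNIP was -0.48 and TXNIP was called (adjusted P = 0.00213). The mean of the other NC libraries was 4.42-fold its value for TXNIP, 2.63-fold for MLXIPL and 1.40-fold for both ARRDC3 and ARRDC4, against 0.989-fold for MLXIP and 0.920-fold for MLX. Among all genes tested, 0.155% deviated further downwards in this library than TXNIP. The corresponding shares were 0.829% for MLXIPL, 8.22% for ARRDC3 and 8.27% for ARRDC4, against 53.6% for MLXIP and 74.4% for MLX. This library also lay farthest from its replicates over all genes. Without it, the log2 fold change was -0.30 for MLXIPL (adjusted P = 0.257), 0.37 for MLXIP, -0.14 for MLX, 0.22 for ARRDC3 and -0.79 for ARRDC4, and the last 4 stayed called.

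ARRDC4 stood at 7.23, 9.63 and 10.6 CPM in the NC libraries and at 5.98, 6.25 and 5.24 CPM in the NONO_KD libraries. All NONO_KD libraries were below the lowest NC library. ARRDC4 fell 1.57-fold (log2 fold change -0.65, SE 0.16, adjusted P = 0.00772), the largest change of the 4 called genes in edgeR's test. On TPM the call was lost in all 3 limma fits, with an adjusted P of 0.0708 on log2(TPM + 1), 0.0682 on log2(TPM + 0.1) and 0.178 without the filter.

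ARRDC3 stood at 19.7, 28.1 and 27.0 CPM in the NC libraries and at 33.3, 31.5 and 31.1 CPM in the NONO_KD libraries. CPM values of the groups did not overlap, but TPM values did, with 6.52 to 12.2 TPM in NC and 10.8 to 12.7 TPM in NONO_KD libraries. ARRDC3 rose 1.28-fold (log2 fold change 0.36, SE 0.11, adjusted P = 0.0305). The call was lost without any one of the NONO_KD libraries, with an adjusted P of 0.105, 0.0816 and 0.0716 in turn.

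**Figure D2:**
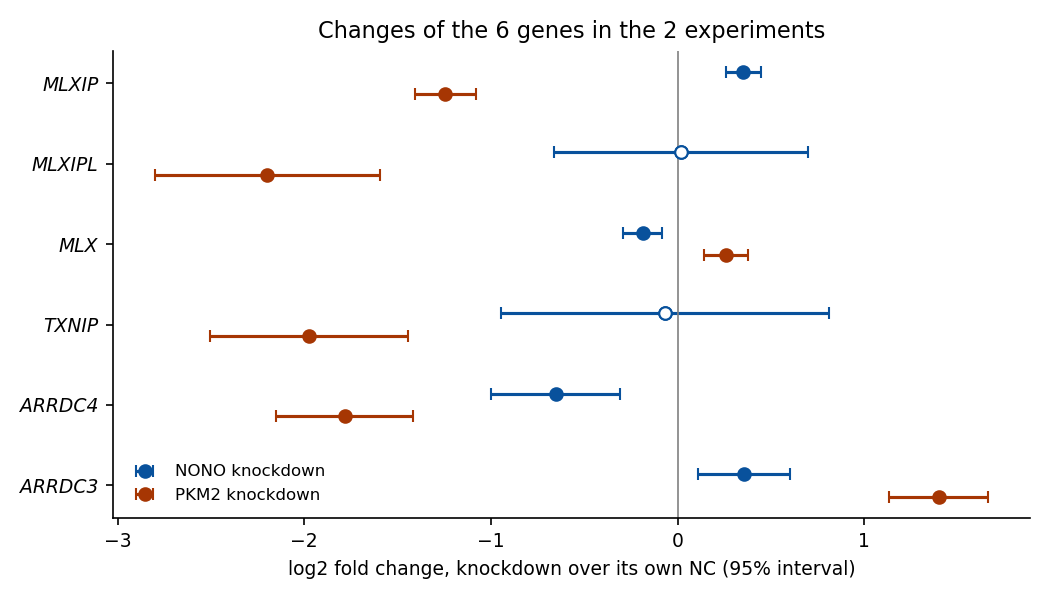
Log2 fold change of each gene, knockdown over its own NC group, with its 95% interval from the edgeR fit; open circles mark an adjusted P of 0.05 or more. ARRDC4 fell and ARRDC3 rose in both experiments, MLXIP and MLX moved in opposite directions, and the intervals of MLXIPL and TXNIP after NONO knockdown cross 0.

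The effects of the knockdowns were compared directly, as an interaction in 1 fit over the 12 libraries, with each knockdown set against its own NC group. By this count-based fit the change differed for all 6 genes, and on log2(TPM + 1) for 5. It was lower after PKM2 knockdown for 4, against 27.4% of all genes, and higher for 2, against 25.7% (adjusted P below 0.05 over 15995 genes). For MLXIP the log2 fold change was lower by 1.61 in the PKM2 experiment (95% interval -1.80 to -1.42, adjusted P = 1.96e-10). For MLX it was higher by 0.43 (95% interval 0.27 to 0.59, adjusted P = 1.20e-04). These are the genes whose called changes had opposite signs.

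For MLXIPL the difference was -2.23 (95% interval -3.19 to -1.27, adjusted P = 4.87e-04), and limma on log2(TPM + 1) gave -0.73 without a call (adjusted P = 0.193). For TXNIP the difference was -1.92 (95% interval -3.11 to -0.74, adjusted P = 0.00779). Without NC library 1 of the NONO experiment the TXNIP difference was -1.48 (adjusted P = 0.00162). ARRDC4 and ARRDC3 moved the same way in both experiments but by unequal amounts, with a difference of -1.14 for ARRDC4 (adjusted P = 5.31e-04) and 1.03 for ARRDC3 (adjusted P = 1.33e-04).

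**Figure D3:**
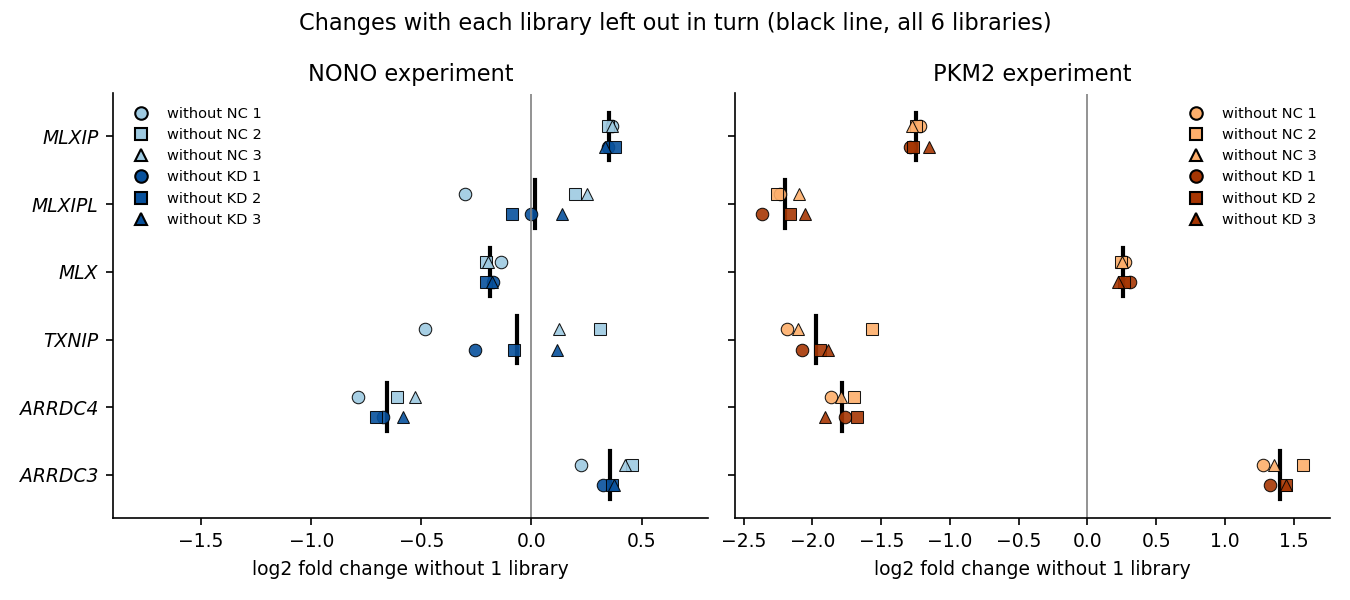
Log2 fold change of each gene refitted without each library in turn, with a black line for the fit on all 6 libraries; the left axis covers the NONO and the right axis the PKM2 experiment. In the PKM2 experiment no point crosses 0, with TXNIP between -2.19 and -1.56, whereas in the NONO experiment TXNIP ranges from -0.48 to 0.31 and MLXIPL from -0.30 to 0.25.

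TXNIP varied more between replicates than nearly all genes of its level. The SD of log2 CPM within groups was 0.918 in the NONO and 0.438 in the PKM2 experiment. Of the genes within 1 log2 unit of its mean level, all had a smaller SD in the former and 99.9% in the latter. For ARRDC3 the corresponding shares were 95.3% and 98.0%, and for MLXIP 14.8% and 84.5%. The spread in the NONO experiment lay mostly in the NC group with its low library 1. There the SD of TXNIP was 1.24, against 0.385 in NONO_KD libraries, and the share for ARRDC3 was 96.8%, against 33.1% in NONO_KD libraries. In the PKM2 experiment, the second NC library was the highest NC library for TXNIP, ARRDC3 and ARRDC4. Among all genes tested, 0.844% deviated further upwards there than TXNIP, 4.48% than ARRDC3 and 9.97% than ARRDC4. The same library was the lowest NC library for MLXIPL and MLX and lay between the others for MLXIP.

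**Figure D4:**
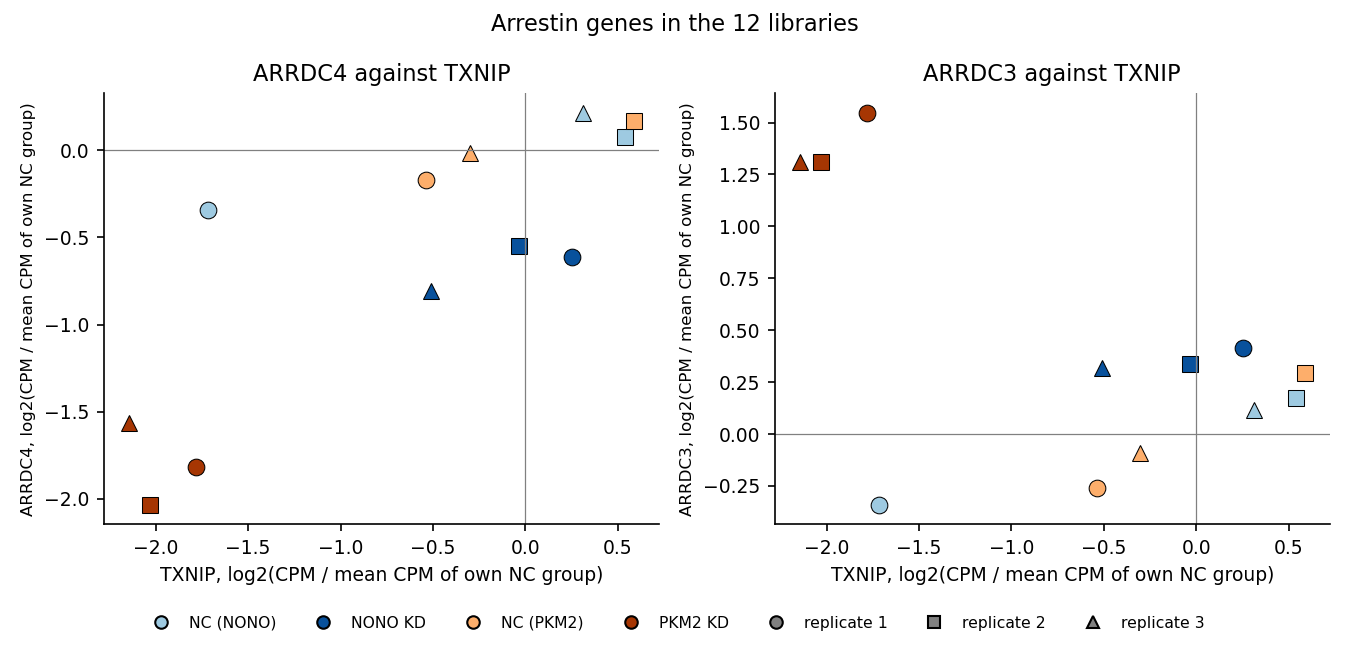
ARRDC4 (left) and ARRDC3 (right) against TXNIP in the 12 libraries, each as log2 of its CPM over the mean CPM of its own NC group. In each experiment the NC library lowest in TXNIP is also lowest in ARRDC4 and ARRDC3, and the share of all genes lowest there is not given. The 3 PKM2_KD libraries have TXNIP between -2.14 and -1.78 with ARRDC4 between -2.03 and -1.56 and ARRDC3 between 1.31 and 1.55.

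The genes whose pattern was most like that of TXNIP were ranked by Pearson's r of log2 CPM over the 12 libraries, after the mean of the own NC group had been taken from each value. The highest were H1F0 (r = 0.977), ZNF467 (0.970), PLEKHB1 (0.961), PARP6 (0.960) and DLG4 (0.959), of 14525 genes. Among the other members r with TXNIP was 0.935 for MLXIPL, 0.818 for ARRDC4, 0.808 for MLXIP, -0.589 for ARRDC3 and -0.836 for MLX. MLXIPL thus ranked at place 33 of all genes, ARRDC4 at 1184, MLXIP at 1414, ARRDC3 at 10458 and MLX at 13676. For ARRDC4 the highest were SIDT2 (0.991), DEF6 (0.989), NOTCH3 (0.988), EHHADH (0.987) and PTK7 (0.985). By likeness to ARRDC4, MLXIPL ranked at place 2139, TXNIP at 3050, MLXIP at 3493, MLX at 10148 and ARRDC3 at 12642. These values describe libraries that share the knockdowns and the low NC library 1 and carry no test.

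Other partners of MLX are MNT, MXD1 and MXD4, which repress E-box genes. MXD4 fell after PKM2 knockdown (log2 fold change -0.53, adjusted P = 3.58e-05) and rose after NONO knockdown (0.31, adjusted P = 0.00943), as MLXIP did. MXD1 fell in both experiments (-0.28 and -0.27), and MNT had 0.06 and 0.14 without a call. Without PKM2_KD library 3, MXD1 was not called and 1 of the 3 genes fell.

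Of 20 genes listed as ChREBP or MondoA targets beside the members, 14 were tested. After PKM2 knockdown 9 fell, against 34.7% of all genes, and 3 rose, against 33.6%. The list's median was -0.47 on the log2 scale against -0.01 over all genes tested. By counts, the largest falls were in the acetyl-CoA carboxylase ACACB (-1.91), the desaturase SCD (-1.43) and PFKFB3 (-1.12), which makes the activator of phosphofructokinase. By TPM the fall of ACACB was smaller in fold than that of SCD or PFKFB3. ACACB went from 3.55 ± 0.633 to 1.86 ± 1.55 TPM (SD, n = 3), with a wide spread in PKM2_KD libraries. SCD went from a mean of 134 to 45.4 TPM and PFKFB3 from 87.5 to 37.6 TPM. HK2, which phosphorylates glucose, had -1.07, and ME1, PNPLA3 and TKT rose (0.51, 0.43 and 0.26). After NONO knockdown 3 fell, led by HK2 (-0.44), against 17.2% of all genes. Here 2 rose, ME1 (0.29) and TKT (0.25), against 16.2%, and the median was -0.05. PKLR, the liver pyruvate kinase gene and a classical ChREBP target, averaged at most 0.0800 TPM and was not tested.

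Among the other arrestins 3 of 4 tested fell after PKM2 knockdown, against 34.7% of all genes, with a median of -0.93. This was the direction of TXNIP and ARRDC4. ARRB1 (-1.48, adjusted P = 2.65e-08) and ARRB2 (-0.70), the beta-arrestins of receptor desensitisation, and ARRDC1 (-1.16, adjusted P = 4.63e-08), an alpha-arrestin of vesicle budding, fell. ARRDC2 had -0.15 (adjusted P = 0.0662). After NONO knockdown ARRB1 rose (0.25, adjusted P = 0.0124), ARRDC1 had 0.02 and ARRDC2 0.21 (adjusted P = 0.0555).

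Of the cargo genes of arrestins, ITGB4, the integrin beta 4 that ARRDC3 is known to act on, fell after PKM2 knockdown (-2.05, adjusted P = 2.89e-07) and rose after NONO knockdown (0.93, adjusted P = 0.0273). INSR, the insulin receptor, fell after PKM2 knockdown (-0.89) and had -0.12 after NONO knockdown without a call (adjusted P = 0.307). SLC2A1, the glucose transporter bound by TXNIP, fell in both experiments, by 0.24 and 0.18 on the log2 scale.

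In the thioredoxin system, which TXNIP inhibits, 14 genes were tested. After PKM2 knockdown 5 rose, against 33.6% of all genes, and 5 fell, against 34.7%, with a median of 0.05. TXN itself rose (0.43, adjusted P = 7.01e-05), as did the peroxiredoxin PRDX4 (1.24) and NXN (0.57), while the reductase TXNRD1 (-0.97, adjusted P = 1.03e-08) and PRDX2 (-0.74) fell. After NONO knockdown 7 fell, against 17.2% of all genes, and 1 rose, against 16.2%, with a median of -0.07. Without NC library 1, 4 rose. The mitochondrial genes PRDX3 (-1.39, adjusted P = 1.59e-08) and TXN2 (-0.70) fell most and PRDX4 rose (0.79), while TXN had 0.16 (adjusted P = 0.0530) and TXNRD1 fell by 0.28 on the log2 scale.

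Glucose entry and phosphorylation is the step that yields the metabolite the sensors respond to. Of its 10 tested genes, 6 fell and 2 rose after PKM2 knockdown, with a median of -0.52. Over all genes tested, 34.7% were called lower and 33.6% higher. HK2 and SLC2A1 are also in the target and cargo lists. SLC2A6 fell (-2.48, adjusted P = 1.52e-09) and SLC2A4, at 0.507 TPM in NC and 0.0433 TPM in PKM2_KD libraries, was called lower. The neuronal-type transporter SLC2A3 (1.74, adjusted P = 3.09e-10) and the hexokinase-like HKDC1 (1.95, adjusted P = 4.04e-09) rose. After NONO knockdown 5 fell, against 17.2% of all genes, led by HKDC1 (-0.84) and SLC2A12 (-0.65), with a median of -0.29. Here SLC2A3 had 0.10 (adjusted P = 0.632).

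Alpha-arrestins work with ubiquitin ligases of the NEDD4 family. Of 9 tested, 4 rose after PKM2 knockdown, against 33.6% of all genes, and 2 fell, against 34.7%, with a median of 0.17. After NONO knockdown 1 rose, against 16.2%, and 2 fell, against 17.2%, with a median of -0.04. WWP2 rose in both experiments (1.30 and 0.39). NEDD4L rose after PKM2 knockdown (0.21) and fell after NONO knockdown (-0.26), ITCH, a ligase of TXNIP, rose after PKM2 knockdown (0.19) and had -0.02 after NONO knockdown, and SMURF2 fell after NONO knockdown (-0.51).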

How the data were processed

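RNA-seq was analysed for 12 libraries in 2 experiments, with groups taken from the labels. Per the labels, poly(A) RNA was read as pairs of 150 bases, and the submitters' processing notes name fastp, HISAT2, StringTie, RSEM, DESeq2, edgeR, limma and hg19 without roles. Of the gene identifiers 96.5% and 96.3% are in GENCODE 29 (GRCh38), used here only for location. The authors deposited estimated counts and TPM values per gene and library. Their columns of group means, fold changes and P values were not used, and 0 columns of single libraries were left out.

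Estimated counts were rounded and tested with edgeR 4.0.16 (R 4.3.3; TMM, filterByExpr, quasi-likelihood) in each experiment, and over all 12 libraries for the difference. A call is a Benjamini-Hochberg adjusted P below 0.05 over all genes tested. CPM values are TMM-normalised, and the likeness used log2 CPM with a prior count of 2. Alternatives were DESeq2 1.42.0, limma 3.58.1 on log2(TPM + 1) or log2(TPM + 0.1) with mean TPM of 1 or more required or not, other factors, no filter, a replicate block, 1 fit, the DEG cutoff, the length trend taken out in 20 bins, and each library left out. The scripts were tested on simulated data. One result of the arrestin cargo list is not reported here. The genes, lists and tests were chosen with earlier results of these data known. Named beside the members were the targeted genes, a set of partners and ligases, up to 3 genes per list and direction with the largest called change, and the 5 genes most like TXNIP and ARRDC4.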

Additional observations from a re-analysis of the deposited data

Results flagged for a closer look

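The change after PKM2 knockdown differed from that after NONO knockdown for each of the 6 genes by the interaction test in edgeR. By the same test 27.4% of all genes were called lower after PKM2 knockdown and 25.7% higher. On the log2 scale the PKM2 change minus the NONO change was -1.61 for MLXIP, -2.23 for MLXIPL, 0.43 for MLX, -1.92 for TXNIP, 1.03 for ARRDC3 and -1.14 for ARRDC4. In edgeR the adjusted P was highest for TXNIP (0.00779), and limma on log2(TPM + 1) did not call MLXIPL (adjusted P = 0.193). The experiments had their own NC groups, so knockdown and experiment cannot be told apart in these differences.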

How the results depend on the processing

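After PKM2 knockdown 5 to 6 genes were called in all 15 alternatives, and the difference between the knockdowns was called for 5 to 6 genes in all 17. After NONO knockdown the count of 4 was 2 with limma on log2(TPM + 1), on log2(TPM + 0.1) and without the TPM filter, 0 by the DEG cutoff, and 2 to 5 with a library left out. The share of all genes called with a library left out is not given here, and the shares of the full fit do not apply to those counts. ARRDC3 and ARRDC4 lost their NONO calls on TPM (adjusted P = 0.345 and 0.0708 with log2(TPM + 1); ranges over all alternatives 1.92e-04 to 0.565 and 8.42e-05 to 0.178). On log2(TPM + 1) MLXIPL had a PKM2 log2 fold change of -0.69 (adjusted P = 0.0271, and 0.0579 without the filter) and a difference of -0.73 (adjusted P = 0.193; range over alternatives 3.67e-08 to 0.193). The cause was not tested. List counts without NC library 1 of the NONO experiment or PKM2_KD library 3, added after seeing the data, are given where they moved by over 1.5 times. Same-numbered libraries did not deviate together (r of -0.07 to 0.04), and libraries of unlike number had r of -0.07 to 0.10. With 3 libraries per group these values cannot show whether the numbers mark a shared culture or day. With a replicate block 4, 6 and 6 genes were called. The counts of MLXIPL in PKM2_KD libraries, at most 16.0, limit its precision.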
